A study of Mus musculus with 8 samples.

Results

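The genes described here release arachidonic acid, turn it into prostaglandins or sense them. They were chosen by name, 10 in all: the phospholipase Pla2g4a, the cyclooxygenases Ptgs1 and Ptgs2, the prostaglandin E synthases Ptges, Ptges2 and Ptges3, the prostacyclin synthase Ptgis, and the receptors Ptger1, Ptger4 and Ptgfr. Of these, 8 had a row among the 13575 genes with deposited values, while Ptgis and Ptgfr had none and were not measured. The study's methods state that genes of low abundance were left out.

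RNA of cultured retinal astrocytes (AC) was sequenced to learn how the cells differ without Cyp1b1, a cytochrome P450 enzyme that oxidizes steroids and fatty acids. There were 4 Cyp1b1+/+ (wild-type) libraries and 4 libraries labelled Cyp1b1-/-, a global deficiency. Per the study's methods, cells came from pooled retinas of a litter of 4-week-old mice of mixed gender and were depleted of endothelial cells with beads against CD31. Both genotypes were grown with interferon-γ, heparin and endothelial growth supplement. The strain entry was C57BL/6 for every Cyp1b1+/+ library and differed from it, and among themselves, for the libraries labelled Cyp1b1-/-, and it was not used. Nothing says that the replicates were separate cultures, and a p-value here therefore rests on a spread among libraries that may be technical.

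The values are gene counts that the authors scaled by TMM to a common library size and rounded, called normalized values here. They summed to 19261729 to 19370850 per Cyp1b1+/+ library and to 19491502 to 20134745 per library labelled Cyp1b1-/-. The study gives an average number of reads for each genotype, and these averages are close. The raw depth of single libraries is not known. Cyp1b1 itself (chromosome 17, 79701537 to 79715061, GRCm38) was not lower under its deletion label: its normalized values were 749, 829, 856 and 882 in Cyp1b1+/+ and 1296, 1276, 1288 and 1368 in the libraries labelled Cyp1b1-/-. Groups are therefore named by label, and every direction given is by label. Xist, which is transcribed from the inactive X chromosome of female cells, had 21084 to 26863 in Cyp1b1+/+ and 34 to 46 in the libraries labelled Cyp1b1-/-, so that the sex makeup of the cells and the genotype label cannot be told apart. Replicate 2 labelled Cyp1b1-/- stood apart, with 499 genes at over 2-fold the mean of the remaining 3 libraries of its label, where each other library had 23 to 35 such genes. Of 12 astrocyte markers 8 were measured, and Gfap, Aqp4, S100b and Aldh1l1 had no row. Of the 8, 2 were higher and 2 lower by limma under the label Cyp1b1-/-, in each case also with any 1 library left out. Vim, a filament gene, had 78996 ± 2848 and 109260 ± 13032 (SD, n = 4) and made up most of the summed value of the 8 (94338 to 101579 and 117679 to 147701), and the gap junction gene Gja1 was higher as well. Pax2, a transcription factor of retinal astrocytes, had 28, 29, 39 and 35 and then 0, 0, 1 and 0 (log2 fold change -4.81), and the filament gene Nes was lower too (-0.23). The 5 measured of 12 fibroblast markers summed to 6399 to 8381 and to 6601 to 178602, the highest in replicate 2, with 0 of 5 called by limma. Without replicate 2 labelled Cyp1b1-/-, the collagen genes Col1a1 and Col3a1 were called lower (log2 fold changes -0.29 and -3.88).

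Cytosolic phospholipase A2, the product of Pla2g4a, cuts arachidonic acid from membrane phospholipids. The cyclooxygenases COX-1 (Ptgs1) and COX-2 (Ptgs2) convert it to the unstable intermediate prostaglandin H, and terminal synthases turn that into prostaglandin E, prostacyclin and other prostanoids, which act on G protein-coupled receptors. COX-1 is known as the constitutive form and COX-2 as the form induced by cytokines, growth factors and synaptic activity. In the retina and brain, prostanoids made by glia act on vessel tone and vessel growth.

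Of the 8 measured genes, 3 differed between the labels at an adjusted p under 0.05 from limma: Ptgs1 and Ptgs2 were lower and Ptges3 was higher in the libraries labelled Cyp1b1-/-. That is 37.5% of the 8, where 53.7% of all 13575 genes were called (26.8% higher and 26.9% lower), so the share called was not above that of the table as a whole. The 2 groups of libraries did not overlap in 4 of the 8 genes, against 49.3% of all genes. The size of the difference set Ptgs1 apart from the other 7: it was the 1 gene called lower by more than 2-fold, which held for 4.52% of all genes. The median log2 fold change of the 8 was -0.17, against -0.00044 over all genes.

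**Figure D1:**
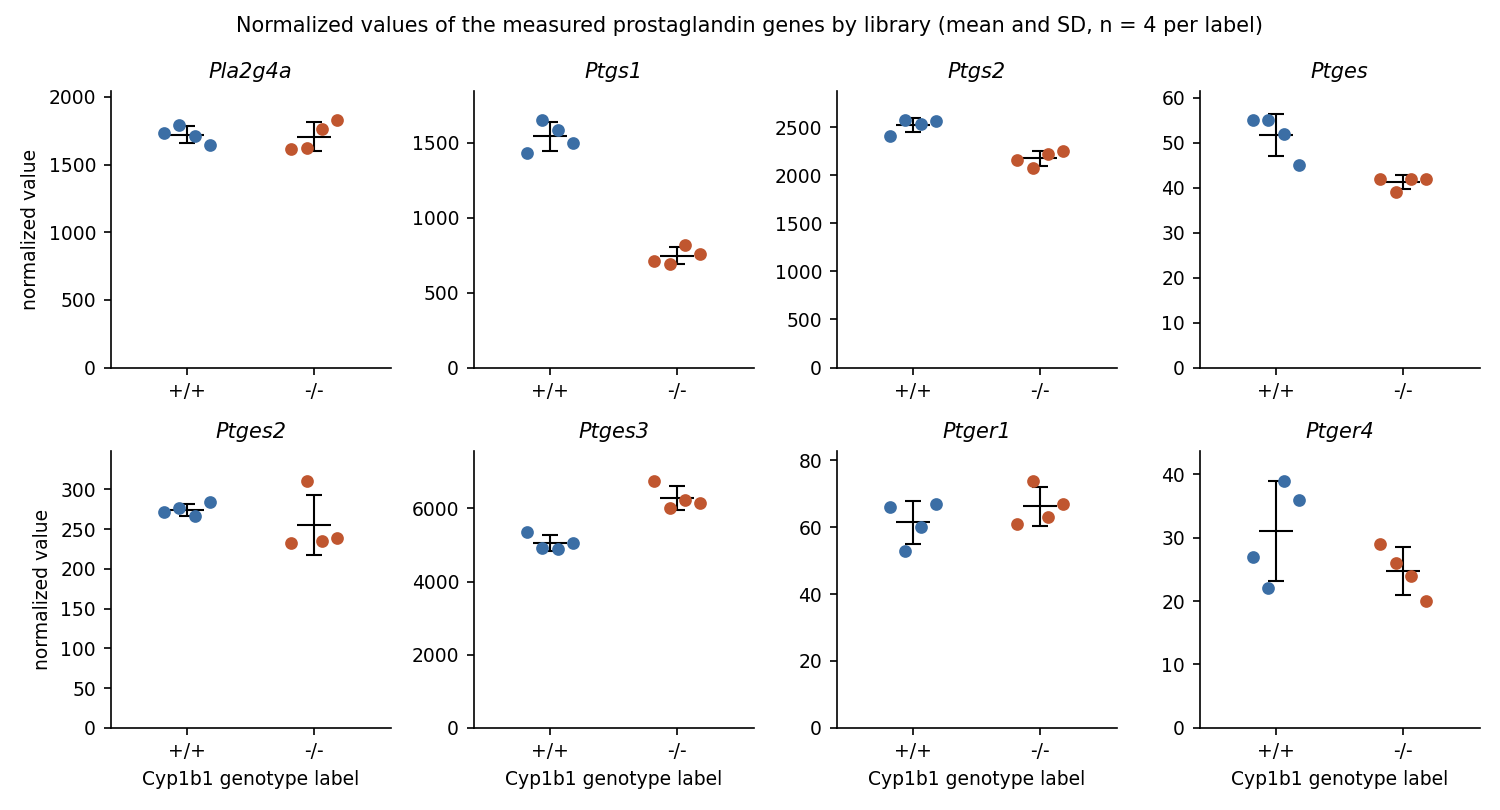
Normalized value (vertical axes, from 0, each panel on its own scale) of the 8 measured prostaglandin genes in every library by Cyp1b1 genotype label, with each point a library and the bars the mean and SD of 4. The 4 Ptgs1 points labelled -/- lie at 692 to 816, below the Cyp1b1+/+ points at 1430 to 1649, while the Pla2g4a, Ptges2, Ptger1 and Ptger4 points of the labels overlap.

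At the release step no difference passed the test. Pla2g4a (ENSMUSG00000056220, chromosome 1, 149829618 to 149961290, minus strand, GRCm38) had normalized values, in order of replicate, of 1731, 1795, 1711 and 1644 in Cyp1b1+/+ and of 1616, 1622, 1763 and 1828 under the label Cyp1b1-/-. The groups overlapped through most of their range. The means were 1720 ± 62.2 and 1707 ± 105 (SD, n = 4 each), with a log2 fold change of -0.01 (SE 0.05, limma adjusted p = 0.843). The 95% interval of the log2 fold change was -0.12 to 0.09, and the sign of the estimate changed without Cyp1b1+/+ replicate 2 or replicate 1 or 2 labelled Cyp1b1-/-.

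The constitutive cyclooxygenase showed the greatest difference of the 8. Ptgs1 (ENSMUSG00000047250, chromosome 2, 36230426 to 36252272, plus strand) had 1430, 1649, 1584 and 1500 in Cyp1b1+/+ and 708, 692, 816 and 760 in the libraries labelled Cyp1b1-/-. Every library labelled Cyp1b1-/- thus lay far below every Cyp1b1+/+ library, and replicate 2, which stood apart in other genes, was close to its own group here. The means were 1541 ± 95.8 and 744 ± 56.1 (SD, n = 4), a level 2.07-fold lower. The log2 fold change was -1.05 (SE 0.06, 95% interval -1.19 to -0.91, limma adjusted p = 4.14e-07), and 4.56% of all genes had a lower one. The exact two-sided permutation test over libraries gave p = 0.0286, the smallest that 4 against 4 allow. All 16 alternative settings called the gene lower, with log2 fold changes of -1.10 to -1.02. In RNA of a whole culture, fewer cells of a type that makes a transcript and less of it per cell cannot be told apart.

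Most of the called markers of other cell types were lower under the label Cyp1b1-/-, and Cnn1 alone was higher. Other markers were not called, and for fibroblasts 0 of 5 measured markers were called. Of all genes, 26.9% were called lower and 26.8% higher. COX-1 is known in the brain as an enzyme of microglia. Of 14 markers of microglia and macrophages, 2 were measured, and Aif1, Cx3cr1, Ptprc and Tyrobp were among the 12 with no row. Both were lower in the libraries labelled Cyp1b1-/-. Csf1r, the receptor that microglia need to survive, had 33, 32, 32 and 37 in Cyp1b1+/+ and 7, 15, 12 and 10 in the others (log2 fold change -1.57, limma adjusted p = 0.000383). Cd68, a lysosomal protein of macrophages, had 53.0 ± 9.31 and 37.0 ± 4.40 (SD, n = 4; limma adjusted p = 0.0267) and no longer passed when Cyp1b1+/+ replicate 2 or 3 or replicate 1 labelled Cyp1b1-/- was left out (adjusted p = 0.0690, 0.0810 and 0.0694). Their summed value was 75 to 96 in Cyp1b1+/+ and 39 to 52 under the label Cyp1b1-/-. Of 10 Müller glia markers 3 were measured, summing to 4609 to 5333 and 1788 to 2118, with Dkk3 (log2 fold change -1.36) and Apoe (-1.73) lower and Clu (0.23, adjusted p = 0.233) not called. Of 12 endothelial markers 4 were measured, summing to 398 to 462 and 317 to 370, with Kdr (-0.40) and Egfl7 (-0.70) lower and Flt1 (0.15) and Esam (-0.01) not called. Of 12 pericyte and smooth muscle markers 6 were measured, and 3 were lower, 1 higher and 2 not called. The lower ones were Mcam (714 ± 38.7 and 131 ± 19.7, SD, n = 4; log2 fold change -2.45), Notch3 (207 ± 18.4 and 84.8 ± 42.9, -1.39) and Pdgfrb (818 ± 69.5 and 436 ± 203), and Cnn1 was higher (1.25). Their sum, 40503 to 48056 and 42419 to 69109, was made up mostly of Acta2 and Tagln, which were not called. The part of these cell types in the Ptgs1 difference was not tested.

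Ptgs1 shares its locus with Gm43621, an unclassified transcript on the opposite strand whose exons overlap those of Ptgs1. It had 16.8 ± 5.85 in Cyp1b1+/+ and 5.75 ± 2.63 (SD, n = 4) under the label Cyp1b1-/- (log2 fold change -1.45, limma adjusted p = 0.0149), and did not pass without Cyp1b1+/+ replicate 3 (adjusted p = 0.0504). Whether the counting used strand is not given in the sources used here, so reads of the pair cannot be told apart.

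Ptgs2, the inducible cyclooxygenase, was lower by a much smaller amount. Ptgs2 (ENSMUSG00000032487, chromosome 1, 150100031 to 150108227, plus strand) had 2413, 2574, 2532 and 2565 in Cyp1b1+/+ and 2156, 2081, 2223 and 2250 under the label Cyp1b1-/-. The groups did not overlap, although the lowest Cyp1b1+/+ library was close to the highest of the others. The means were 2521 ± 74.2 and 2178 ± 75.5 (SD, n = 4), a level 1.16-fold lower with a log2 fold change of -0.21 (SE 0.04, 95% interval -0.29 to -0.13, limma adjusted p = 0.00062). A greater change in either direction was seen in 51.4% of all genes. All 16 alternative settings called it lower, at adjusted p = 6.17e-05 to 0.00315. Pla2g4a and Ptgs2 lie 138740 bp apart on chromosome 1, and of these neighbours Ptgs2 alone passed the test. The test of a difference between their changes was not run.

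The balance between the cyclooxygenases was compared within each library, a measure chosen after the values had been seen. Per kilobase of merged exon, Ptgs1 made up 41.1%, 43.0%, 42.5% and 40.8% of the summed Ptgs1 and Ptgs2 value in Cyp1b1+/+ and 27.9%, 28.2%, 30.2% and 28.5% in the libraries labelled Cyp1b1-/-. By this measure Ptgs2 had the higher level in all 8 libraries, and more so under the deletion label. The merged exon length need not be the length of the transcript expressed, which was not determined. The log2 ratio of the normalized values of Ptgs1 to Ptgs2 was -0.71 ± 0.06 and -1.55 ± 0.07 (SD, n = 4), a difference of -0.84 (two-sided exact permutation p = 0.0286, again the smallest possible). With any library left out the difference was -0.87 to -0.82 and the exact p 0.0571, which is the smallest that 3 against 4 libraries allow.

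**Figure D2:**
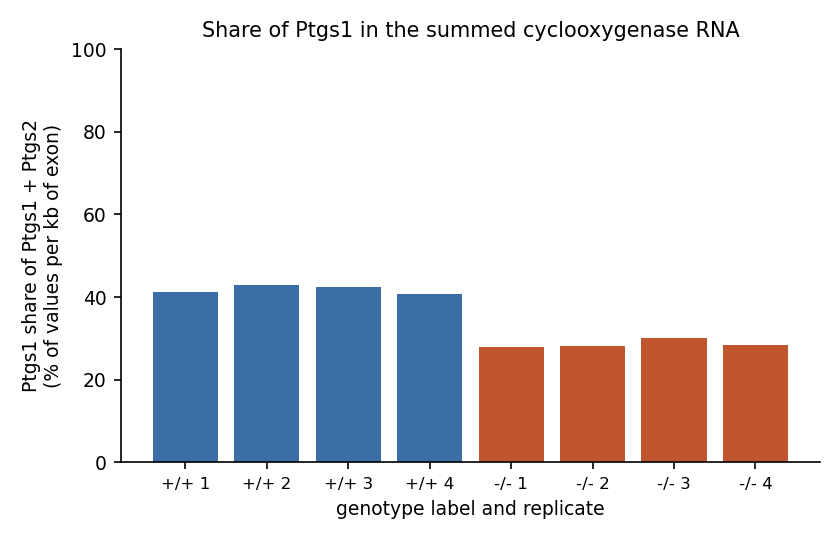
Share of Ptgs1 in the summed Ptgs1 and Ptgs2 value per kilobase of exon (vertical axis, % from 0 to 100) in each of the 8 libraries, 1 bar per library. The Cyp1b1+/+ bars reach 40.8% to 43.0% and the bars labelled -/- 27.9% to 30.2%.

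The sequences before the starts of Ptgs1 and Ptgs2 are shown because these genes differ in how far they moved. They are the 250 bases before the annotated start from RefSeq (GRCm38.p6), 5′ to 3′, Ptgs1 at chr2:36230176-36230425 and Ptgs2 at chr1:150099781-150100030, both on the plus strand. Capitals mark motif matches.
Ptgs1: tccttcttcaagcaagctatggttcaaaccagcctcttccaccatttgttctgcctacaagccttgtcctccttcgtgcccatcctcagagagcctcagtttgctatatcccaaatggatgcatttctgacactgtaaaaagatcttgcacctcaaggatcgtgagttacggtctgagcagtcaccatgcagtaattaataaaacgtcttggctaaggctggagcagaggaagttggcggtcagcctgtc
Ptgs2: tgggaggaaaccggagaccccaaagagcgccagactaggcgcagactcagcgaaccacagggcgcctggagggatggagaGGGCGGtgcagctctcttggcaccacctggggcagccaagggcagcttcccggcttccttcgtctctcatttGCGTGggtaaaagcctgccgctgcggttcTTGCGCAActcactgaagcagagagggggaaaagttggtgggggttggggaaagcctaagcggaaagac
Both strands were searched for TATAAA (the TATA box), CGTCA (a part of the cAMP response element), GGGCGG (the GC box), GCGTG (the core bound by the aryl hydrocarbon receptor) and TTGCGCAA (a palindrome bound by C/EBP factors, added after the sequence was read). In the Ptgs1 window, with a GC content of 48.0%, there was no match. In the Ptgs2 window, with 61.6%, there was a match of GGGCGG 170 to 165 bases before the start, of GCGTG 98 to 94 bases before it and of TTGCGCAA 69 to 62 bases before it, none overlapping another. Among 32851 promoter windows of this length, with a mean GC content of 53.2%, TATAAA was in 12.4%, CGTCA in 17.8%, GGGCGG in 32.7%, GCGTG in 28.2% and TTGCGCAA in 0.164%. A match is a description of the letters and not a site.

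The Ptgs2 window also reaches into Ptgs2os, a transcript on the opposite strand that begins 67 bp upstream of the start of Ptgs2 and runs away from it. It had 41, 32, 41 and 36 in Cyp1b1+/+ and 33, 17, 34 and 41 in the libraries labelled Cyp1b1-/- (log2 fold change -0.31, limma adjusted p = 0.320), so that these groups overlapped. Windows of 8 of the 10 genes were found, with none for Ptgis and Ptger1. GC boxes numbered 4 before Ptger4, 3 before Ptges3, 2 before Ptges and 1 before Ptgfr. Matches of GCGTG numbered 2 before Ptges3 and 1 each before Ptges, Ptges2 and a Pla2g4a window, with 0 before Ptger4 and Ptgfr. GCGTG was thus not particular to Ptgs2. A further Pla2g4a window held 1 match of TATAAA.

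The genes whose values over the 8 libraries were most like those of Ptgs1 were Pcdh17, a protocadherin (Pearson r = 0.9991), Ctsl, the lysosomal protease cathepsin L (0.9982), and Lpl, lipoprotein lipase (0.9982), among 11557 genes with a mean of at least 50. Pcdh17 had 1799.5 ± 101 in Cyp1b1+/+ and 718 ± 59.6 (SD, n = 4) under the label Cyp1b1-/-, Ctsl 6440.2 ± 389 and 3597 ± 232, and Lpl 967 ± 66.9 and 381 ± 31.4. For Ptgs2 they were the long non-coding RNA A930037H05Rik (0.9937), Poglut1, a glucosyltransferase that modifies Notch (0.9928), and Prrc2c (0.9926). These correlations are a description over 8 libraries that share the split by label.

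The terminal synthases of prostaglandin E went different ways. Ptges3 (ENSMUSG00000071072, chromosome 10, 128058954 to 128077272, plus strand) encodes p23, a cochaperone of Hsp90 that also has prostaglandin E synthase activity and is thought to work with COX-1. It had 5359, 4912, 4882 and 5062 in Cyp1b1+/+ and 6765, 6006, 6236 and 6155 in the libraries labelled Cyp1b1-/-. All 4 of the latter were higher than any Cyp1b1+/+ library. The means were 5054 ± 218 and 6290.5 ± 330 (SD, n = 4), a level 1.24-fold higher with a log2 fold change of 0.32 (SE 0.04, 95% interval 0.22 to 0.41, limma adjusted p = 0.000186), called higher in all 16 alternative settings. Relatives of this gene could share reads with it. Ptges3l had 73.2 ± 7.63 and 100.5 ± 7.14 (log2 fold change 0.45, limma adjusted p = 0.00479). The pseudogene Ptges3-ps had 351 to 465 in Cyp1b1+/+ and 405, 993, 417 and 422 in the libraries labelled Cyp1b1-/-, with replicate 2 alone high (limma adjusted p = 0.331).

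Ptges, the inducible membrane-bound synthase that is known to be coupled to COX-2, did not pass the test although its groups were apart. Ptges (ENSMUSG00000050737, chromosome 2, 30889471 to 30929863, minus strand) had 55, 55, 52 and 45 in Cyp1b1+/+ and 42, 39, 42 and 42 under the label Cyp1b1-/-. Between the nearest libraries of the groups there was a margin of 3 (two-sided exact permutation p = 0.0286). The means were 51.8 ± 4.72 and 41.2 ± 1.5 (SD, n = 4), and the log2 fold change of -0.32 (SE 0.13, 95% interval -0.60 to -0.04) missed the threshold over all genes (limma adjusted p = 0.0558). It passed in 2 of the 16 alternative settings: with libraries scaled to equal totals (adjusted p = 0.0481) and without Cyp1b1+/+ replicate 4 (adjusted p = 0.0399).

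Ptges2, the membrane-associated synthase that is made constitutively, turned on 1 library. Ptges2 (ENSMUSG00000026820, chromosome 2, 32395896 to 32405772, plus strand) had 272, 276, 266 and 284 in Cyp1b1+/+ and 233, 311, 235 and 239 in the libraries labelled Cyp1b1-/-. Replicate 2 was the highest of all 8 and the other 3 of its group the lowest. With all libraries the means were 274.5 ± 7.55 and 254.5 ± 37.7 (SD, n = 4; log2 fold change -0.12, SE 0.09, 95% interval -0.32 to 0.09, limma adjusted p = 0.299). Without replicate 2 labelled Cyp1b1-/- the log2 fold change was -0.22 (limma adjusted p = 0.00811), and with library weights, which limma estimates from the spread of each library, it was -0.19 (adjusted p = 0.0201).

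**Figure D3:**
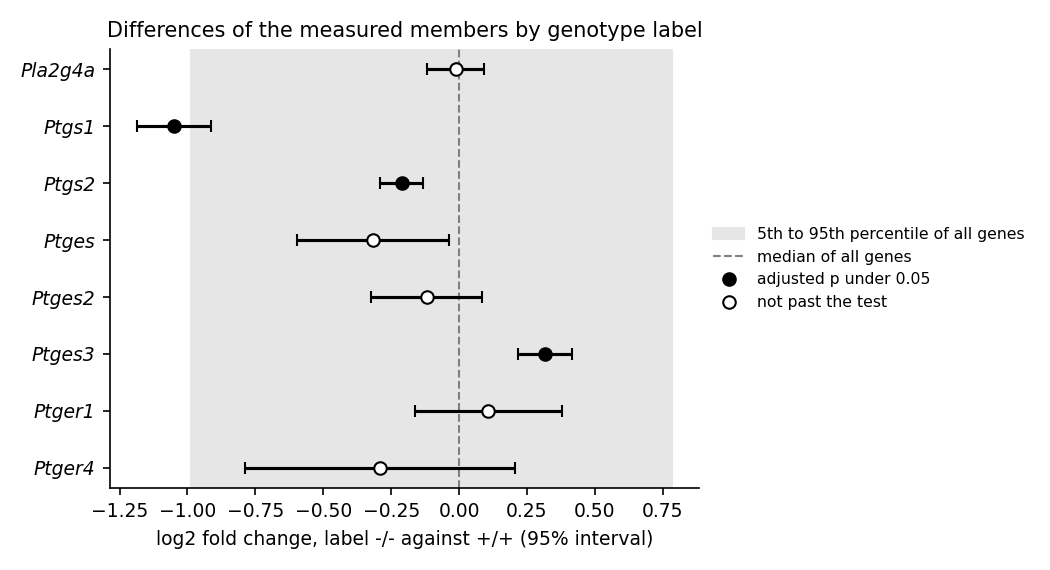
Log2 fold change of each of the 8 measured genes, label -/- against +/+ (horizontal axis), with its 95% interval from limma, filled where the adjusted p was under 0.05, over the range that holds the middle 90% of all genes (grey, -0.99 to 0.79). Ptgs1 at -1.05 is the 1 gene outside the grey range, and Ptgs2 at -0.21 and Ptges3 at 0.32 are the other filled points.

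Neither measured receptor passed the test. Ptger1 (ENSMUSG00000019464, chromosome 8, 83666678 to 83672753, plus strand), whose product EP1 raises calcium, had 66, 53, 60 and 67 in Cyp1b1+/+ and 61, 74, 63 and 67 under the label Cyp1b1-/-. The groups overlapped, with means of 61.5 ± 6.45 and 66.2 ± 5.74 (SD, n = 4; log2 fold change 0.11, 95% interval -0.16 to 0.38, limma adjusted p = 0.479).

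Ptger4 (ENSMUSG00000039942, chromosome 15, 5206661 to 5244187, minus strand), whose product EP4 raises cAMP, had 27, 22, 39 and 36 in Cyp1b1+/+ and 29, 26, 24 and 20 under the label Cyp1b1-/-. The groups overlapped here too, and the Cyp1b1+/+ libraries were spread more widely. The means were 31.0 ± 7.87 and 24.8 ± 3.77 (SD, n = 4; log2 fold change -0.29, limma adjusted p = 0.294), with a 95% interval of -0.79 to 0.20. Exons of Ttc33 overlap it on the opposite strand, and Ttc33 was higher in the libraries labelled Cyp1b1-/- (179 ± 15.2 and 226.5 ± 21.8, SD, n = 4; limma adjusted p = 0.00987).

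Levels between genes were set side by side per kilobase of merged exon, so the order depends on that length and not on the transcripts expressed. In Cyp1b1+/+ the order was Ptges3 (normalized value per kb 2280 ± 98.4, SD, n = 4), Ptgs2 (550.4 ± 16.2), Ptgs1 (397 ± 24.7), Pla2g4a (269 ± 9.73), Ptges2 (54.3 ± 1.49), Ptges (13.2 ± 1.20), Ptger1 (11.3 ± 1.18) and Ptger4 (4.66 ± 1.18). The libraries of neighbouring genes in this order did not overlap, except those of Ptges (11.4 to 13.99 per kb) and Ptger1 (9.71 to 12.3). In the libraries labelled Cyp1b1-/- Ptgs1 stood below Pla2g4a, with 178 to 210 against 253 to 286 per kb. Ptges likewise stood below Ptger1 there, with 9.92 to 10.7 against 11.2 to 13.6.

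The other genes of the pathway were described with 9 lists of 146 gene symbols in all, a few of them alternative names of the same gene. Of these symbols 87 had a row and were measured. Of these 27 were higher, 27 lower and 33 not called, so that 62.1% were called, against 53.7% of all genes. The share called was 75.0% for release, 53.8% for re-acylation, 44.4% for phospholipase A2 regulators and 71.4% for other synthases. It was 75.0% for lipoxygenase and leukotriene genes, 25.0% for the P450 and epoxide hydrolase arm and 55.0% for regulators of Ptgs2. Other receptors and transport and breakdown were called in full. The median log2 fold change of the 87 was -0.0073. By more than 2-fold, 5 were called higher and 5 lower.

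**Figure D4:**
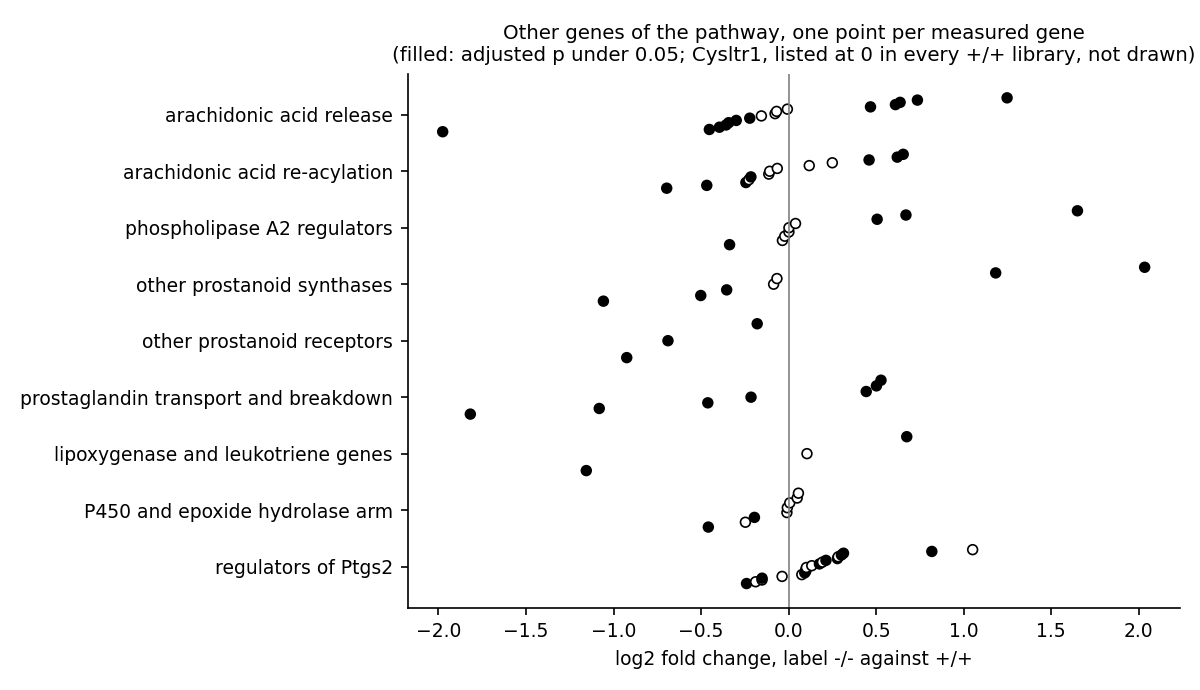
Log2 fold change, label -/- against +/+ (horizontal axis), of the measured genes of the 9 lists, 1 row per list and 1 point per gene, filled where the adjusted p from limma was under 0.05. Most rows hold filled points on both sides of 0, and Cysltr1 is not drawn because it was listed at 0 in every Cyp1b1+/+ library.

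Around the release step, 5 of the 16 measured genes were higher, 7 lower and 4 not called, with a median log2 fold change of -0.12. Dagla, which makes the endocannabinoid 2-arachidonoylglycerol, had 344 ± 16.9 in Cyp1b1+/+ and 573 ± 12.9 (SD, n = 4) under the label Cyp1b1-/- (log2 fold change 0.74, limma adjusted p = 9.37e-07). The calcium-independent phospholipases Pnpla8 (437 ± 16.3 and 680 ± 11.5, log2 fold change 0.64) and Pla2g6 (450.2 ± 16.5 and 623 ± 26.1, 0.47) and the phospholipase Pla2g16 (403 ± 21.5 and 616 ± 28.7, 0.61) were higher as well. Abhd12 (adjusted p = 0.136) and Plcb4 (adjusted p = 0.921) were not called. Chosen after their values were seen, Pla2g4b, a further cytosolic phospholipase gene, had 91, 83, 72 and 83 in Cyp1b1+/+ and 20, 28, 24 and 12 in the others (log2 fold change -1.98, limma adjusted p = 5.53e-05), and Pla2g7, which hydrolyses platelet-activating factor, had 8, 11, 9 and 8 and 16, 25, 27 and 24 (log2 fold change 1.25, limma adjusted p = 0.0021). Phospholipase genes thus moved both ways while Pla2g4a did not pass.

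Genes that put arachidonic acid back into phospholipids were all 13 measured, 3 higher, 4 lower and 6 not called, with a median log2 fold change of -0.11. Acsl5, which activates fatty acids with coenzyme A, had 2204 ± 101 and 3387 ± 65.7 (SD, n = 4; log2 fold change 0.62, limma adjusted p = 4.97e-07). The acyltransferases Agpat3 (log2 fold change 0.46) and Mboat1 (0.65) were higher and Lpcat4 (-0.70) was lower. Lpcat1 (adjusted p = 0.166) and Acsl3 (adjusted p = 0.218) were not called, though Acsl3 was lower without replicate 2 labelled Cyp1b1-/- (log2 fold change -0.17, limma adjusted p = 0.0221).

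Of 9 genes that regulate phospholipase A2, 3 were higher, 1 lower and 5 not called, with a median log2 fold change of 0.0020. Mapk13, a p38 kinase, had 263, 279, 268 and 262 in Cyp1b1+/+ and 885, 792, 827 and 871 in the libraries labelled Cyp1b1-/-, a level 3.14-fold higher (log2 fold change 1.65, SE 0.05, limma adjusted p = 4.28e-09). This p38 kinase and its relative Mapk14 were called in opposite directions. Mapk14 had 2018 ± 67.5 and 1597 ± 31.4 (SD, n = 4; log2 fold change -0.34). Mapk3, the kinase ERK1, which can phosphorylate cytosolic phospholipase A2, had 645 ± 21.2 and 1029 ± 73.9 (log2 fold change 0.67). S100a6, a calcium-binding protein, was higher (log2 fold change 0.51), and the annexins Anxa1 (adjusted p = 0.684) and Anxa2 (adjusted p = 0.982), which bind membranes and can hold the enzyme back, were not called.

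Of the 7 measured genes for other prostanoid synthases, 2 were higher, 3 lower and 2 not called, with a median log2 fold change of -0.09, and Ptgds, Hpgds and Tbxas1 had no row. Cbr3, a carbonyl reductase, had 550, 539, 559 and 555 in Cyp1b1+/+ and 302, 241, 277 and 241 in the libraries labelled Cyp1b1-/- (log2 fold change -1.06, limma adjusted p = 1.43e-06). Its relative Cbr1, which reduces prostaglandin E to the F form, was lower (162 ± 17.0 and 115 ± 16.2, SD, n = 4; log2 fold change -0.50, adjusted p = 0.00483). Akr1b3, the aldose reductase with prostaglandin F synthase activity, had 3404 ± 116 and 2664.5 ± 128 (log2 fold change -0.35, adjusted p = 4.48e-05). All 3 of these fell, with no overlap between the groups, a separation also seen in 49.3% of all genes. Cbr2 was higher from a low level (8, 10, 7 and 8, then 44, 29, 44 and 32), as was Akr1c14 (15, 16, 5 and 6, then 21, 24, 22 and 23, adjusted p = 0.0204), which failed to pass when Cyp1b1+/+ replicate 3 or 4 was left out (adjusted p = 0.0501 and 0.0564), so that 1 gene was then higher. In the study's RT-qPCR the change of Cbr2 did not reach significance, while Cbr3 was not listed among such genes. The related aldose reductase genes Akr1b8 (adjusted p = 0.147) and Akr1b10 (adjusted p = 0.438), which may share reads, were not called.

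Among other receptors and binding proteins 3 of 9 were measured, with no row for Ptger2, Ptger3, Ptgir, Ptgdr, Ptgdr2 and Tbxa2r. All 3 were lower, where 26.9% of all genes were called lower. Ptgfrn, which binds and inhibits the prostaglandin F receptor, had 3732, 4241, 4039 and 4077 in Cyp1b1+/+ and 2483, 2372, 2603 and 2515 in the libraries labelled Cyp1b1-/- (log2 fold change -0.69, limma adjusted p = 7.69e-07). The receptor Ptgfr itself was not measured. The nuclear receptors that bind prostanoid and fatty acid ligands were Pparg (48.0 ± 3.16 and 25.0 ± 3.83, SD, n = 4; log2 fold change -0.92, adjusted p = 0.000746) and Ppard (454 ± 12.6 and 402 ± 34.3, log2 fold change -0.18, limma adjusted p = 0.0335). Ppard overlapped between the groups. With 1 library left out it passed only where that was Cyp1b1+/+ replicate 2 or replicate 2 labelled Cyp1b1-/- (adjusted p = 0.0588 to 0.0899 without any 1 of the others), and 2 genes of the list were then lower.

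All 7 measured genes of prostaglandin transport and breakdown were called, 3 higher and 4 lower, where 53.7% of all genes were called. Hpgd had no row. The reductase Ptgr1, which inactivates the 15-oxo prostaglandins and leukotriene B, had 816, 800, 753 and 783 in Cyp1b1+/+ and 370, 349, 393 and 376 in the libraries labelled Cyp1b1-/-. That difference (log2 fold change -1.08, SE 0.05, limma adjusted p = 7.29e-08) was close in size to that of Ptgs1. Its relatives Ptgr2 (319 ± 20.5 and 460.5 ± 38.0, SD, n = 4; log2 fold change 0.53, adjusted p = 0.000133) and Zadh2 (664 ± 55.7 and 901 ± 17.6, 0.44, adjusted p = 0.000107) were higher instead. Slco2a1, the carrier that takes prostaglandins up for breakdown, had 538, 619, 623 and 594 in Cyp1b1+/+ and 839, 778, 888 and 856 in the others (log2 fold change 0.50, limma adjusted p = 4.86e-05). The organic anion carriers Slco4a1 (386 ± 52.7 and 109 ± 14.9, log2 fold change -1.82, adjusted p = 1.22e-06) and Slco3a1 (1482 ± 76.0 and 1079 ± 103, -0.46, adjusted p = 0.000213) were lower. Abcc4, the efflux pump of prostaglandin E, had 1017 ± 90.8 and 875 ± 60.9 (log2 fold change -0.21, limma adjusted p = 0.0277) and did not pass without Cyp1b1+/+ replicate 2, 3 or 4 or replicate 1 labelled Cyp1b1-/- (adjusted p = 0.0823, 0.0758, 0.0662 and 0.0602). The list thus moved in both directions among carriers and among reductases.

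**Figure D5:**
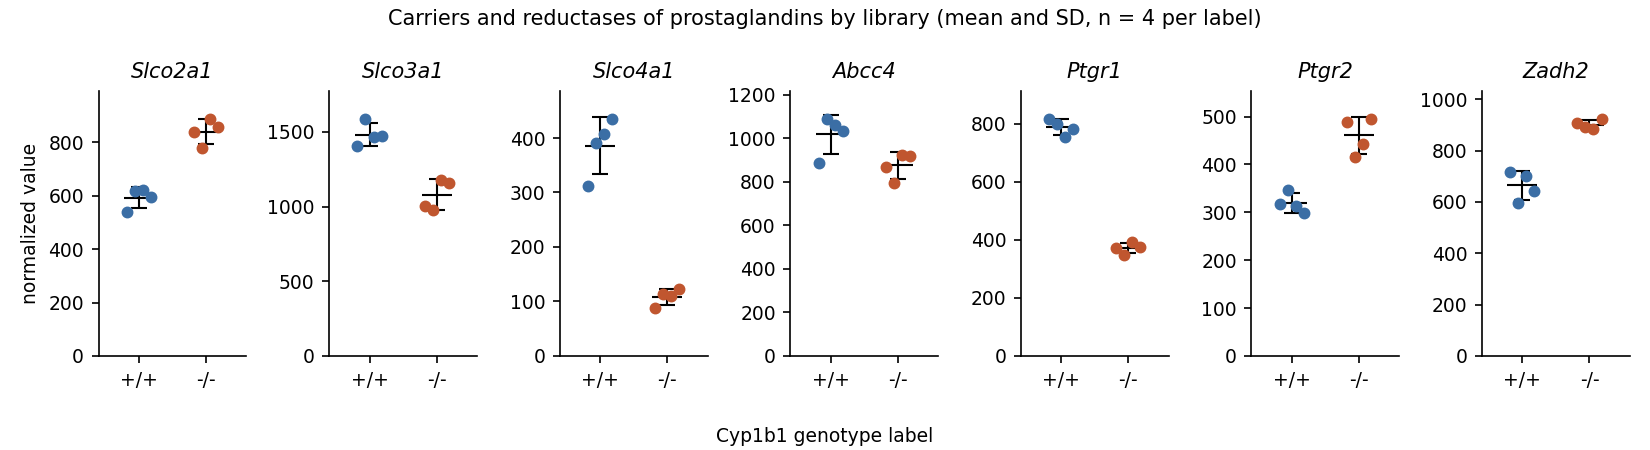
Normalized value (vertical axes, from 0, each panel on its own scale) of the 7 measured genes of prostaglandin transport and breakdown in every library by Cyp1b1 genotype label, points for libraries and bars for the mean and SD of 4. Ptgr1 falls from 753 to 816 down to 349 to 393 and Slco2a1 rises from 538 to 623 up to 778 to 888, and Abcc4 is the 1 panel in which the labels overlap.

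The competing routes of arachidonic acid were sparsely measured. Of 21 lipoxygenase and leukotriene genes 4 had a row, without Alox5 and Alox5ap, and 2 were higher, 1 lower and 1 not called. Lta4h, the leukotriene A hydrolase, had 1105, 1104, 1132 and 1164 in Cyp1b1+/+ and 1891, 1649, 1843 and 1820 in the libraries labelled Cyp1b1-/- (log2 fold change 0.67, limma adjusted p = 1.00e-06). Cysltr1, a receptor of cysteinyl leukotrienes, had 32, 42, 49 and 40 under the label Cyp1b1-/- and is listed at 0 for all 4 Cyp1b1+/+ libraries. The study places Cysltr1 on the X chromosome, and the change of this gene in its RT-qPCR did not reach significance. The epidermal lipoxygenase gene Aloxe3 was lower (50 ± 6.06 and 22 ± 3.65, SD, n = 4; adjusted p = 0.000281), and Mgst3 was not called (adjusted p = 0.208). In the P450 and epoxide hydrolase arm 2 of 8 were lower and 0 higher, the 3 genes with a positive log2 fold change having limma adjusted p = 0.378 to 0.952. Cyp2u1 (114 ± 20.4 and 82.0 ± 4.69, limma adjusted p = 0.0126) and Cyp4f16 (263 ± 13.1 and 229.5 ± 8.19, adjusted p = 0.0193) were lower, the latter not without Cyp1b1+/+ replicate 3 or 4 (adjusted p = 0.0590 and 0.0549), when 1 gene was lower. Ephx1, the microsomal epoxide hydrolase (adjusted p = 0.922), and Cyp20a1 (adjusted p = 0.378) were not called.

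Of 20 measured genes that regulate Ptgs2, 9 were higher, 2 lower and 9 not called. The share called, 55.0%, was near the 53.7% of all genes (26.8% higher and 26.9% lower). The median log2 fold change was 0.12, and the inducers Il1b, Il6 and Tnf had no row. The count of higher genes was 5, 4 and 4 without Cyp1b1+/+ replicates 2, 3 and 4, and that of lower genes was 1 without Cyp1b1+/+ replicate 1 or 2. Cebpd, a C/EBP transcription factor, had 52, 66, 73 and 76 in Cyp1b1+/+ and 129, 132, 100 and 111 in the libraries labelled Cyp1b1-/- (log2 fold change 0.82, limma adjusted p = 0.000774). The transcription factor Creb1 (971.5 ± 29.9 and 1208 ± 56.4, SD, n = 4; log2 fold change 0.31), Celf2, an RNA-binding protein that holds back translation of COX-2 (0.28), and Nfkbia, the inhibitor of NF-κB (0.30), were higher too. Ptgs2 itself was lower in the same libraries. Jun (adjusted p = 0.380) and Tnfrsf1a (adjusted p = 0.534) were not called.

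The immediate early genes of that list singled out replicate 2, and were chosen after their values were seen. Fos had 28, 955, 35 and 30 in the libraries labelled Cyp1b1-/- and 32 to 43 in Cyp1b1+/+, and Egr1 had 220, 780, 229 and 214 against 230 to 290. Ptgs2, which is itself known as an immediate early gene, was at its lowest in that replicate (2081).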

How the data were processed

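RNA of 8 libraries was measured. Paired-end reads had been split with bcl2fastq 2.20, aligned by the authors to GRCm38.p6 with STAR 2.5.3a and counted with RSEM, and the counts were scaled by TMM in edgeR 3.28.0. The methods state that genes with a read count under 1 in 2 or more samples were left out, but 71 of the 13575 genes are listed at 0 in 2 or more libraries, so the table does not follow that rule as worded. The deposited score of a gene is that scaled count, rounded to a whole number. It is not a raw count, so a test of counts could not be used and the counting error of single values is unknown. Columns with the authors' own comparison (log2 fold change, likelihood ratio, p-value and FDR) and sheets of their selected genes were not used.

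The test was limma 3.58.1 (R 4.3.3) on log2(value + 1) with the trend of variance on mean, for all 8 libraries without covariates, with Benjamini-Hochberg adjustment over all 13575 genes and a threshold of 0.05. The script was tested on simulated data. Fold changes are on the log2(value + 1) scale, which understates those of low genes. Single values were also tested with an exact permutation test over libraries. Levels per kb divide by the merged exon length of GENCODE mouse release 21. Promoter windows are from RefSeq (GRCm38.p6). Python 3.11.15 with pandas 2.3.3, scipy 1.17.1, numpy 2.4.6 and matplotlib 3.10.9 served for tables and plots.

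The text names the 10 chosen genes, Cyp1b1, genes that overlap them, up to 4 called genes with the smallest p and up to 2 not called from each list, the 3 genes most correlated with Ptgs1 and with Ptgs2, and markers where a result is set beside them. Any other gene was named after its values were seen. A gene that this rule would name is not reported here. The chosen genes and the lists were set with earlier results of these data known. Alternatives were pseudocounts of 0.1 and 0.5, rescaling by median ratios or to equal totals, a mean of at least 10, the replicate number as a block, robust moderation, library weights, and leaving out each library in turn.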

Additional observations from a re-analysis of the deposited data

Results flagged for a closer look

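For 77 of the named genes under each label, 154 sets of 4 values were screened. Of the cell type markers, only Vim, Csf1r and Cd68 were among the 77. Markers outside the screen were not counted. Among those was Col1a1, with 122121 in replicate 2 labelled Cyp1b1-/- and 1643 to 1843 in the other libraries of that label. In 11 of the 154 sets the highest or lowest library lay far from the other 3. Chance gives about 1 in 20, but some genes, Fos and Egr1 among them, were named after their values were seen. The 11 can therefore not be set against chance. Replicate 2 labelled Cyp1b1-/- accounts for 6 of the 11, with Fos and Egr1 among the 6. It had the lowest Ptges value, 39 where the other 3 had 42, and the highest Ptges2 value, 311 where they had 233 to 239. It was also highest for Anxa2 (21915 against 17612 to 18096), the pseudogene Ptges3-ps (993 against 405 to 422), Fos (955 against 28 to 35) and Egr1 (780 against 214 to 229). Replicate 4 labelled Cyp1b1-/- had the lowest Pnpla8 value, 663 against 685 to 687. Among the Cyp1b1+/+ libraries, replicate 1 was lowest for Nfkbia (553 against 596 to 599), replicate 2 highest for Akr1b10 (421 against 360 to 367), replicate 3 lowest for Agpat3 (2025 against 2104 to 2118), and replicate 4 highest for Aloxe3 (59 against 46 to 48). Of the genes of the prostaglandin pathway that were chosen by name, Ptges and Ptges2 are the ones with such a library, and the Ptges value differs from the others by 3.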

How the results depend on the processing

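Of 1610 recomputed values, 1544 were classed as unchanged. For a fold change this meant the same direction and the same side of the threshold. For a count of genes it meant a count near that of the main setting, not an identical one. Ptgs1, Ptgs2 and Ptges3 were called in the same direction in all 16 alternatives. The log2 fold change of Ptges was -0.34 and called with equal totals and -0.38 to -0.29 with 1 library left out. That of Ptges2 was -0.19 and called with library weights and -0.219 to -0.0805 with 1 library left out. For Pla2g4a, never called, it was 0.0254 with library weights and -0.0458 to 0.0134 with 1 library left out. Among regulators of Ptgs2, 5 were higher with equal totals and 4 lower with library weights, and with 1 library left out 4 to 8 were higher and 1 to 3 lower. Of other synthases 1 to 2 were then higher, of the P450 arm 1 to 3 lower, and the log2 ratio of Ptgs1 to Ptgs2 differed by -0.87 to -0.82 at the smallest exact p that 3 against 4 libraries allow. Equal totals moved the median of all genes by -0.026 and gave 3212 higher and 3927 lower genes.

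With 1 library left out 6477 to 7633 genes were called, and 8261 with library weights. With the replicate number as a block, 7105 genes were called (3543 higher and 3562 lower), against 7285 without it. Same-numbered libraries did not deviate together (r = -0.0226 to -0.0045), and not every library correlated best with its own number, so the numbers were not taken to pair the libraries. The block changed the limma call of Acsl3 (adjusted p = 0.0472) and Ppard (adjusted p = 0.0578). It changed that of no other named gene that was followed, a set without most cell type markers.

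Of 1104 alternative values for 69 named genes, 19 lost a call, 3 gained a call and 17 changed sign, and before it changed sign none of the 17 had been called. These 69 include the markers Vim, Csf1r and Cd68 and no other cell type marker. Some markers outside the 69 also changed sign with 1 library left out, such as Col1a1 (-0.289 to 1.78) and Flt1 (-0.0625 to 0.349). Within the 69, the sign changed for Anxa2 with equal totals (-0.024), library weights (-0.053), without Cyp1b1+/+ replicate 3 (-0.0077) and without replicate 2 labelled Cyp1b1-/- (-0.073). For Anxa1 it was 0.012 with library weights, and 0.012 without Cyp1b1+/+ replicate 1. For Ephx1 it was 0.012 with library weights, 0.015 and 0.016 without Cyp1b1+/+ replicates 2 and 3, and 0.053 without replicate 2 labelled Cyp1b1-/-. Library weights gave -0.026 for Jun and -0.12 for Egr1. Plcb4 was at 0.011 without Cyp1b1+/+ replicate 4 and at 0.038 without replicate 1 labelled Cyp1b1-/-. Without replicate 2 labelled Cyp1b1-/-, Ptges3-ps was at -0.0054, Fos at -0.18 and Egr1 at -0.26, the last of them called (adjusted p = 0.0187 from limma). With 1 library left out the log2 fold change was -0.0356 to 0.0382 for Plcb4, -0.0731 to 0.032 for Anxa2, -0.0379 to 0.0122 for Anxa1, -0.0665 to 0.0526 for Ephx1, -0.0054 to 0.425 for Ptges3-ps, -0.175 to 1.51 for Fos and -0.261 to 0.36 for Egr1. The cause of these changes was not tested. The raw depth of single libraries is unknown, and of the 8 measured genes Ptges, Ptger1 and Ptger4 had the widest intervals.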
